A study of Mus musculus with 4 samples.

Results

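Primary granule proteins are the enzymes that granulocyte and monocyte precursors pack into their first (azurophilic) granules, and the 4 genes described here encode the best known of them. *Mpo* encodes myeloperoxidase, the heme enzyme that makes hypochlorous acid. *Elane*, *Prtn3* and *Ctsg* encode the serine proteases neutrophil elastase, proteinase 3 and cathepsin G. They are made as inactive precursors, and cathepsin C, encoded by *Ctsc*, trims the proteases to their active form. Their mRNA is known to be abundant in promyelocytes and their precursors and to be shut off as neutrophils mature, so that mature cells carry the proteins without the message. The 4 genes were chosen by name, as 4 of the 32285 genes counted, and not by a rule on their values. Earlier results of these data were known when they were chosen.

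The genes were followed in 4 libraries of spleen cells of BALB/c mice after allo-HCT. The labels do not say whether each library came from 1 mouse, so that p-values measure the spread between these samples only. After lethal total body irradiation, all recipients had been given 10000 WEHI-3B cells, a BALB/c AML line, and allogeneic C57BL/6 BM, and 200000 donor T cells (Tc) followed on day 2; spleens were taken on day 23. Donor BM and Tc carried floxed alleles of *Havcr2*, which encodes TIM-3, in every recipient. For 2 libraries the donor was Havcr2fl/fl and for the other 2 Havcr2fl/fl;E8icre/+, where the E8I enhancer drives cre in CD8+ cells, so that deletion is not meant to reach the myeloid cells described here. Mice were 7 to 12 weeks old. The labels call the cells Tc and name a pan-Tc kit, whereas the study describes FACS-sorted donor Tc. The counts held other cells as well: 6761 of 11507 cells (58.8%) lay in the 10 Tc clusters, in each of which over 90% of cells had a *Cd3d*, *Cd3e* or *Cd3g* UMI, and 4746 cells lay elsewhere.

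The libraries held 1511 to 6737 barcodes and 17693991 to 55045903 unique molecular identifiers (UMIs), each of which stands for 1 captured RNA molecule. The cell filter and doublet removal left 1204 to 4328 cells per library, and pairs of libraries shared 1 to 10 barcodes. *Havcr2* in CD8+ Tc was at 61.3 and 7.94 UMIs per 1000000 UMIs of the summed cells (CPM) in the KO-labelled libraries 1 and 2 and at 54.8 and 115 CPM in the control-labelled libraries 1 and 2. By this gene KO-labelled library 1 thus goes against its label. Whether the counted 3′ end lies in the deleted part is not given in the sources used here. Both genes later called between the labels in Tc set this library beside KO-labelled library 2. *Xlr* was at 14.7 and 13.6 CPM in the KO-labelled libraries 1 and 2 and at 0 in both controls. *Prdm16* was at 9.15 and 11.7 against 0.171 and 0.158 CPM. Called genes part the labels by choice, and the genotype of the library was not tested. Libraries are named by their labels. Control-labelled library 2 stood apart from the others, with 42.1% Tc against 66.4% to 70.5%.

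The genes lie at 3 loci. In GENCODE M21 on GRCm38, *Prtn3* (ENSMUSG00000057729, chromosome 10, 79874476 to 79883174, + strand) and *Elane* (ENSMUSG00000020125, chromosome 10, 79886247 to 79888215, + strand) are neighbors with 3072 bases between them. *Mpo* (ENSMUSG00000009350) lies on chromosome 11 from 87793581 to 87804413 on the + strand, and *Ctsg* (ENSMUSG00000040314) on chromosome 14 from 56099881 to 56102574 on the − strand. All 4 genes had a match among the RefSeq promoter windows of GRCm38.p6, of which the 250 bases before the RefSeq start were searched. The sequences are shown because the genes move together in the cells described next, and each stops where a GENCODE exon first reaches into the window. The *Prtn3* stretch lies before the first exon of the coding transcript but inside the gene as GENCODE draws it, in an intron of a longer noncoding transcript that starts upstream. Capitals mark AGGAAGT, the core read by ETS factors such as PU.1.
Mpo, chr11:87793534-87793580, + strand: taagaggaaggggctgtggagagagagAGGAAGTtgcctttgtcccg
Elane, chr10:79886062-79886246, + strand: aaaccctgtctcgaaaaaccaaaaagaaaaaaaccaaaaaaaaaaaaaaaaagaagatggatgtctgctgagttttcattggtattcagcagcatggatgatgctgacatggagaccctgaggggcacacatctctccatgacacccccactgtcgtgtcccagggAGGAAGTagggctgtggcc
Prtn3, chr10:79879417-79879613, + strand: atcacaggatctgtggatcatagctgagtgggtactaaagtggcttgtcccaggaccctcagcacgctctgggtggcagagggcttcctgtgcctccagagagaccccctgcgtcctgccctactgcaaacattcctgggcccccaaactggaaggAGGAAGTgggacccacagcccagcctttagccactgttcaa
Ctsg, chr14:56102575-56102824, − strand: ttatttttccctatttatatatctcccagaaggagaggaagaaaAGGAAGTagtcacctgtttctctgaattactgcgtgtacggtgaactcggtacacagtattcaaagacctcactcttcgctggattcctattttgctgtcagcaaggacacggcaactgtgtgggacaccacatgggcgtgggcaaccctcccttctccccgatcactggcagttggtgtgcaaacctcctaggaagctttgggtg

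AGGAAGT or its complement ACTTCCT stood once in each of the 4 windows, on the strand of the gene, and its first base lay 84, 94, 206 and 223 bases before the RefSeq start of *Elane*, *Prtn3*, *Ctsg* and *Mpo*. Of 32851 windows of this length, 7.69% held it. AACGG or CCGTT, the core read by MYB, stood in the windows of *Elane* and *Prtn3* alone among the 4, and in 14.5% of all windows. Its first base lay 50 and 55 bases before the start. The *Elane* match lies beyond the stretch shown, whereas the *Prtn3* match begins at the very end of its stretch and runs past it. TGTGGT or ACCACA, read by RUNX factors, stood in the *Ctsg* window (14.05% of all windows). TTNNGNAA or TTNCNNAA, a loose form of the C/EBP site, was in none of the 4 and in 36.8% of all windows. The motifs do not overlap each other, were chosen after the windows had been seen, and say only which letters stand there.

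Nearly all mRNA of the 4 genes lay in 2 small groups of cells. The genes had been left out of the clustering and of the marker lists. The first group was cluster 14, with 348 cells (3.02% of all), in which 10 of 11 markers of granulocyte-monocyte progenitors (*Ms4a3*, *Cebpe*, *Cebpa*, *Csf3r* and *Prss57* among them) stood above their level in other cells, but also 7 of 11 markers of monocytes and macrophages, with *F13a1*, *Ly86* and *Ms4a6c* leading its top genes. It is therefore given by its number. The second was a basophil and mast-like cluster of 190 cells (1.65%), in which all 8 of its markers stood above other cells, including the basophil proteases *Mcpt8* and *Prss34*. Cluster 14 held 97.0% of the *Elane* UMIs of all cells and 96.8% of the *Prtn3* UMIs. It held 77.5% of the *Mpo* UMIs, and the basophil and mast-like cells held 20.4%. The *Ctsg* UMIs were split between them, with 54.9% and 43.3%.

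**Figure D1:**
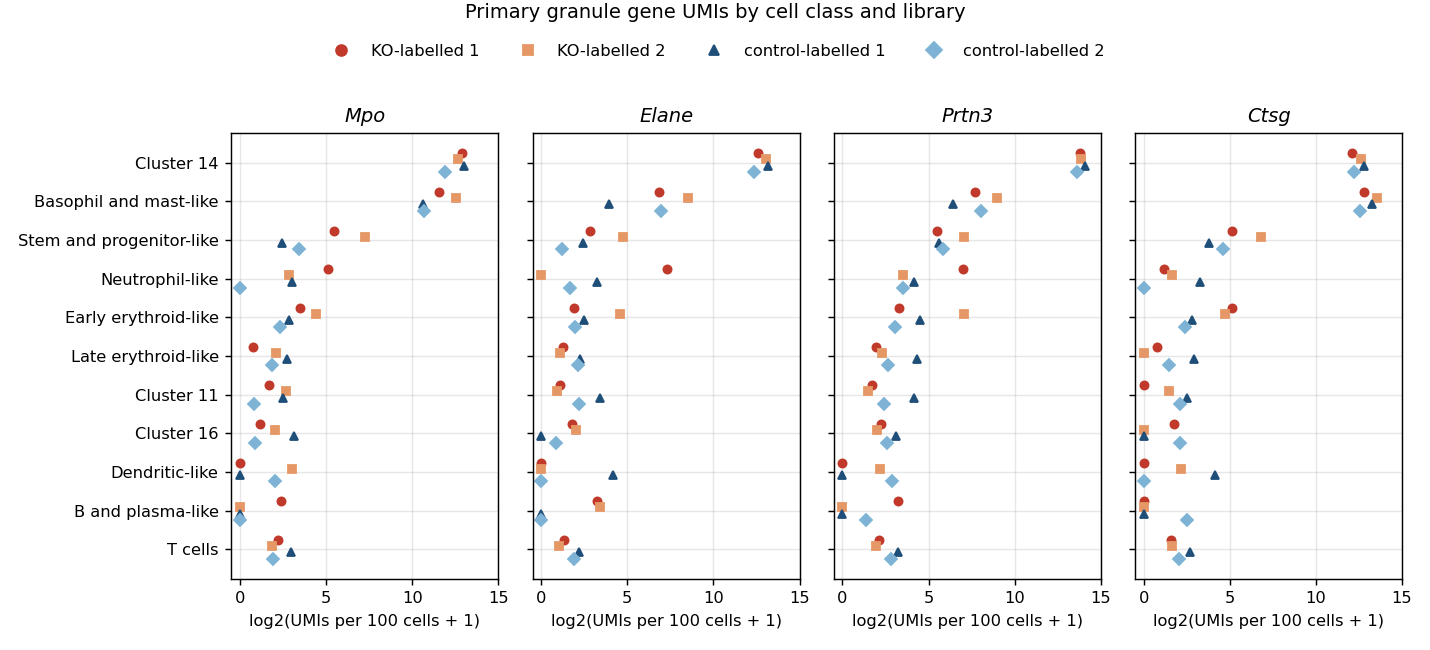
UMIs of the 4 genes per 100 cells, on a log2 scale after adding 1, in each class of cells (rows) and library (points; KO-labelled in red and orange, control-labelled in blue). Cluster 14 stands highest for Elane and Prtn3, and the basophil and mast-like cells stand above it for Ctsg and below it for Mpo in all 4 libraries. For Mpo, Prtn3 and Ctsg every other class stands below both. For Elane, the neutrophil-like cells of KO-labelled library 1 pass the basophil and mast-like cells (1.59 UMIs per cell against 1.15), with 127 of 130 UMIs in 1 cell. The dendritic-like cells of control-labelled library 1 also do (0.167 against 0.143). That is 1 UMI in 6 cells against 1 UMI in 7 cells, which sets no order.

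In cluster 14, *Prtn3* was the most abundant of the 4 in every library. It stood at 4146 and 3413 CPM in the KO-labelled libraries 1 and 2 and at 3353 and 5442 CPM in the control-labelled libraries 1 and 2. *Elane* was at 1806, 1986, 1785 and 2196 CPM in the same order. *Mpo* was at 2284, 1502, 1599 and 1654 CPM, and *Ctsg* at 1315, 1462, 1380 and 1990 CPM. The 3′ counting takes 1 UMI per molecule, so that these levels need no scaling to gene length. *Elane* had the narrowest spread over libraries, at 1943 ± 191 CPM (SD, n = 4), and *Mpo* was at 1760 ± 355, *Prtn3* at 4089 ± 972 and *Ctsg* at 1537 ± 308 CPM.

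The basophil and mast-like cells had another make-up. *Ctsg* stood at 4261, 4410, 5291 and 6280 CPM in the KO-labelled libraries 1 and 2 and the control-labelled libraries 1 and 2. In each library it was 3.02- to 3.84-fold above cluster 14, and the 4 libraries of one class did not overlap those of the other. Of 7669 genes with a mean of at least 10 CPM, 14.3% were likewise lower in cluster 14 with no overlap. *Mpo* stood at 1845, 2234, 875 and 1708 CPM, a range that overlaps that of cluster 14. *Elane* was at 69.0, 136, 7.82 and 126 CPM and *Prtn3* at 124, 185, 46.9 and 275 CPM. Control-labelled library 1 had only 7 such cells. In the other 3 libraries, cluster 14 was 14.6- to 26.2-fold above them in *Elane* and 18.4- to 33.3-fold above them in *Prtn3*, the 2 genes that are neighbors on chromosome 10. The 82 *Elane* UMIs of 1 cell made up much of the level in KO-labelled library 2, which was 59.2 CPM without that cell. These contrasts between clusters are descriptions, given without a test.

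Per cell, the messages were plentiful. The median cell of cluster 14 held 112 *Prtn3*, 35 *Ctsg*, 33 *Elane* and 27 *Mpo* UMIs, and the highest held 566, 380, 789 and 411. All 4 genes were found in 283 of its 348 cells (81.3%), and 5 cells had none. After each cell was thinned to 5000 UMIs, every cell of cluster 14 with *Elane* or *Ctsg* also had *Prtn3*, whereas 73.9% of the cells with *Prtn3* had *Mpo*. The median basophil and mast-like cell held 69 *Ctsg* and 19.5 *Mpo* UMIs but 1 *Prtn3* and 0 *Elane* UMIs, and 55 of 190 cells (28.9%) had all 4 genes. At the thinned depth, 99.4% of its *Mpo* cells had *Ctsg*, and 25% had *Elane*.

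Within cluster 14 the 4 genes varied together from cell to cell. Spearman's correlation of the thinned counts over the 348 cells was highest for *Mpo* and *Ctsg* (0.81) and lowest for *Elane* and *Ctsg* (0.70), and within single libraries the 6 pairs ranged from 0.64 to 0.85. Over 173 basophil and mast-like cells deep enough to thin, it was 0.40 for *Mpo* and *Prtn3*, 0.22 for *Mpo* and *Ctsg* and −0.04 for *Prtn3* and *Ctsg*. The 2 proteases of chromosome 10 reached 0.38 there, against 0.74 in cluster 14. At the thinned depth, however, only 41 of the 173 cells had *Elane* and 64 had *Prtn3*. In cluster 14, 280 and 333 of the 348 cells had them. The part of cells without a UMI in the lower correlations was not tested. Cells of a library share its depth and free RNA, and these values are given without a p-value.

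Along the monocyte markers of cluster 14 the 4 genes declined by different amounts; these values are descriptions, with no test. The cells of each library were ranked by the summed share of the 11 monocyte and macrophage markers and cut into 4 bins of near-equal size, which are ranges and not cell types. *Mpo* went from 3683 ± 614 CPM in the first bin to 243 ± 77.6 CPM in the last (SD, n = 4 libraries), a difference of 12.9- to 19.2-fold. *Elane* went from 3773 ± 582 to 553 ± 299 CPM, by 4.65- to 9.75-fold, and *Ctsg* from 2681 ± 562 to 457 ± 143 CPM, by 4.41- to 9.14-fold. *Prtn3* changed least, from 6141 ± 1757 to 2036 ± 708 CPM, by 2.86- to 3.37-fold. *Mpo* had the largest ratio of first to last bin and *Prtn3* the smallest in all 4 libraries, and the decline was stepwise in 4 of 4 libraries for *Mpo*, *Prtn3* and *Ctsg* and in 3 of 4 for *Elane*. *Myb* went the same way, from 299 ± 70.1 to 42.0 ± 8.19 CPM, as did *Prss57*, which encodes a further granule protease (161 ± 13.3 to 5.39 ± 4.30 CPM), and *Srgn*, whose product serglycin carries the proteases in the granule (1522 ± 301 to 289 ± 65.6 CPM). *Ctsc*, the activator of the 3 proteases, went the other way, from 180 ± 40.1 to 763 ± 77.2 CPM, together with *Lyz2* (200 ± 74.9 to 5619 ± 433 CPM) and *Klf4*, a factor of monocyte development (71.6 ± 36.7 to 295 ± 45.3 CPM). The median depth went from 40417 to 23580 UMIs per cell over the bins, and its part in these values was not tested.

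In the basophil and mast-like cells the genes parted. Ranked by their own 8 markers in the same way, in the 3 libraries with enough cells, *Ctsg* went from 3225 ± 1056 CPM in the first bin to 6833 ± 870 CPM in the last (SD, n = 3), whereas *Prtn3* went from 445 ± 213 to 61.1 ± 29.9 CPM and *Mpo* from 2325 ± 301 to 1490 ± 221 CPM. *Mpo* was 1.53- to 1.58-fold and *Prtn3* 4.93- to 9.29-fold higher in the first bin, and *Ctsg* was lower there in all 3 libraries. *Elane* stood at 242 ± 135 and 68.1 ± 27.1 CPM. The decline was stepwise in 1 of 3 libraries for *Mpo*, in 1 of 3 for *Prtn3* and in 0 of 3 for *Elane*. *Myb* was again highest in the first bin (469 ± 120 against 90.7 ± 16.5 CPM). The median depth was 16999 UMIs per cell in the first bin and 11046 in the last.

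**Figure D2:**
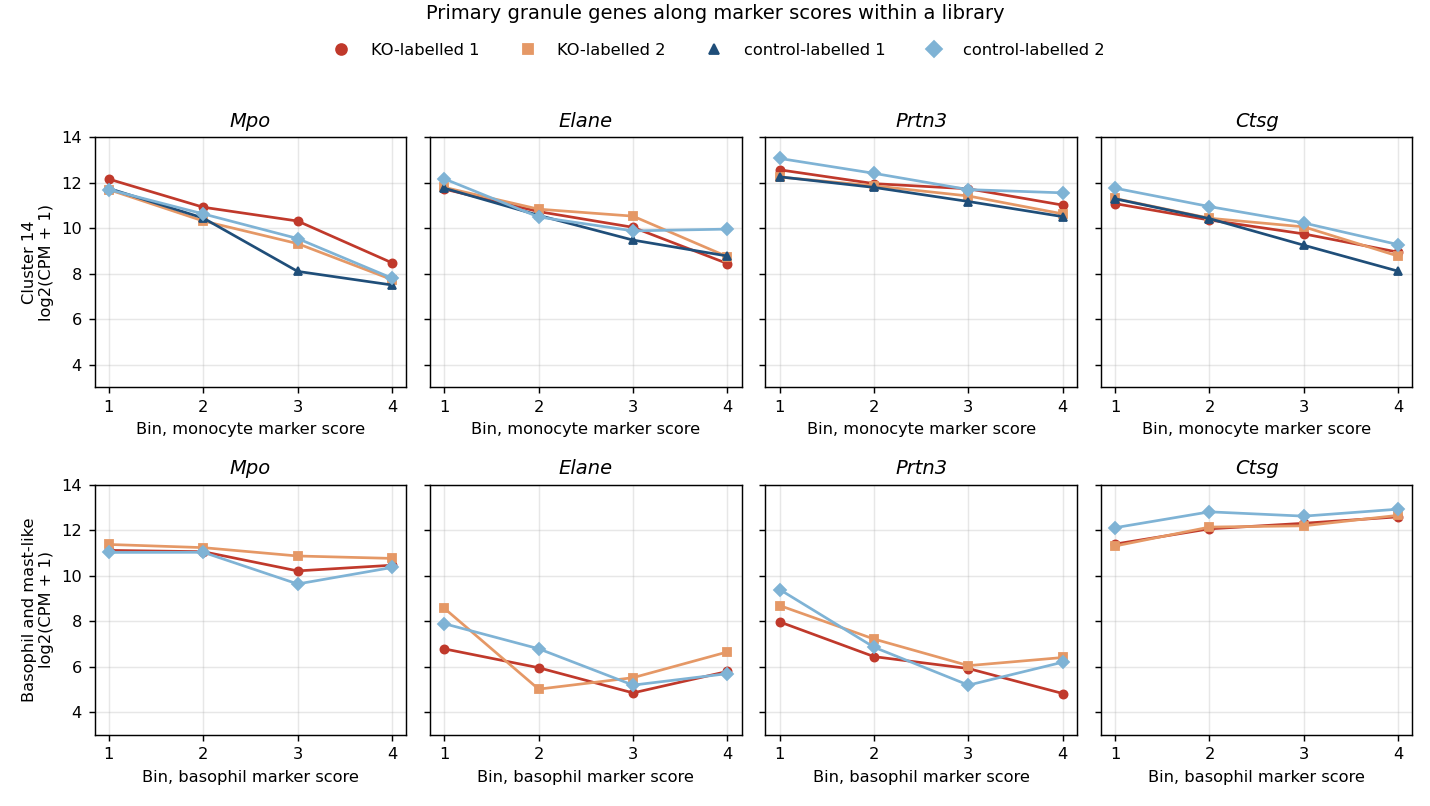
CPM on a log2 scale after adding 1, by bin (1 lowest, 4 highest) of a marker score within each library. Top row, cluster 14 by monocyte markers, where Mpo drops most (12.9- to 19.2-fold) and Prtn3 least; bottom row, basophil and mast-like cells by their own markers in 3 libraries, where Ctsg climbs and the other 3 genes end lower than they began.

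The partners of the granule proteins were described from lists written from general knowledge, with earlier results of these data known. Of 22 genes for granule proteins, their processing and their packing, 4 were higher in cluster 14 than in basophil and mast-like cells in all libraries with no overlap (*Ctsc*, *Slpi*, *Lyz2* and *Hexa*), where 22.8% of all 7669 genes with a mean of at least 10 CPM were, and 8 were lower (among them *Srgn*, *Serpinb1a*, *Cd63* and *Calr*), where 14.3% of all genes were. *Ctsc* was at 476 ± 34.1 CPM in cluster 14 and at 63.8 ± 20.2 CPM in the basophil and mast-like cells (SD, n = 4). *Srgn* was at 821 ± 133 and 4746 ± 788 CPM, and *Serpinb1a*, an inhibitor of the 3 proteases, at 194 ± 41.2 and 325 ± 61.2 CPM. Against stem and progenitor-like cells, 14 of the 22 were higher and 1 was lower, where 20.7% and 22.3% of all 7824 genes were. Among the 14 were *Calr* and *Canx*, the chaperones that fold myeloperoxidase, at 1076 ± 232 against 566 ± 80.3 CPM and at 440 ± 50.6 against 342 ± 28.8 CPM. *Serpinb1b* had no UMI in any of these classes.

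Of 11 regulators of myeloid genes, 5 were higher in cluster 14 than in basophil and mast-like cells and 2 were lower, where 22.8% and 14.3% of all genes were. *Irf8*, a factor of monocyte and dendritic cell development, was at 412 ± 71.1 against 1.85 ± 1.65 CPM, and *Klf4* at 210 ± 36.7 against 0.615 ± 0.748 CPM. *Spi1*, which encodes PU.1, was at 274 ± 24.6 against 132 ± 35.6 CPM. *Cebpa*, which drives the myeloid fate, was lower, at 44.9 ± 5.30 against 211 ± 18.0 CPM, and so was *Runx1*, at 138 ± 14.9 against 528 ± 86.5 CPM. *Cebpe* and *Gfi1* were low in both, at 22.4 ± 3.13 and 7.17 ± 2.91 CPM in cluster 14.

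Genes of the secondary and tertiary granule list, which also holds the neutrophil messages *S100a8* and *S100a9*, were unequal in cluster 14. *Cybb*, a subunit of the oxidase of phagocytes, stood at 264 ± 26.2 CPM, *S100a8* at 293 ± 267 and *Lcn2* at 68.8 ± 43.4 CPM (SD, n = 4), whereas 5 of the 10 genes of the secondary and tertiary granule list were below 3 CPM on average. All 10 were lower there than in neutrophil-like cells in every library (16.4% of all 7227 genes were), but 8 of them had served to name those cells, so that nothing is read from the count. *Ltf*, which encodes lactoferrin, was at 0.209 ± 0.269 against 9354 ± 1594 CPM, and *Camp*, which encodes the antimicrobial peptide precursor cathelicidin, at 1.53 ± 0.915 against 31534 ± 4537 CPM. The neutrophil-like cells in turn held almost no primary granule message. Of 248 such cells, 1 in KO-labelled library 1 held 127 *Elane* and 100 *Prtn3* UMIs. Without it the level in that library went from 218 to 5.02 CPM for *Elane* and from 177 to 10.0 CPM for *Prtn3*. At 2000 UMIs per cell, 0.435% to 2.17% of neutrophil-like cells had a UMI of a given member, against 0.759% to 1.90% of Tc.

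The pattern across all classes was compared over 78 sums of cluster and library. The genes most like *Mpo* by Pearson's correlation of log2(CPM + 1), among 8070 genes, were *Ctsg* (0.91), *Prtn3* (0.87) and *Cebpa* (0.84), and those most like *Elane* were *Prtn3* (0.90), *Mpo* (0.84) and *Ctsg* (0.80). *Ctsg* came closest to *Mpo* (0.91), *Ccl9* (0.88) and *Cebpa* (0.85). *Ms4a3*, a marker of granulocyte-monocyte progenitors, was among the 5 closest genes of every member. The sums share libraries and depth, so the values are descriptions.

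The origin of cluster 14 from donor BM or from the injected leukemia was not settled by the counts. WEHI-3B is a myelomonocytic line known for its activated *Il3* and *Hoxb8*. Neither gene had a UMI in any class of cells (0 of 348 cells of cluster 14, which allows a share of cells with a UMI of up to 0.862%). Whether these libraries would count either gene in WEHI-3B cells was not tested, so the count sets no limit on leukemia cells. The median depth was 33282 gene UMIs per cell in cluster 14 and 4588 in Tc. The tag against the donor haplotype H-2Kb had a median of 3112 to 8057 counts per cell of cluster 14 by library and was never below 716. Its median per cell was 3324 to 7956 counts in early erythroid-like cells, 2001 to 6352.5 in basophil and mast-like cells and 1191 to 2366 in Tc. Per 1000 gene UMIs, however, the tag was at 140 to 168 in cluster 14, against 151 to 173 in early erythroid-like cells. By this ratio it was at 230 to 253 in basophil and mast-like cells and 325 to 397 in Tc. What the lower ratio reflects was not tested. Of the cells of cluster 14, 19.3% held a *Cd3d*, *Cd3e* or *Cd3g* UMI, against over 90% of the cells in each Tc cluster.

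The stem and progenitor-like cells (358 cells, with 6 of 10 markers raised, *Kit*, *Meis1* and *Angpt1* among them) held little of the message. *Mpo* was at 18.3 and 53.8 CPM in the KO-labelled libraries 1 and 2 and at 1.17 and 5.72 CPM in the control-labelled libraries 1 and 2. One cell of KO-labelled library 2 held 96 of that library's 102 *Mpo* UMIs, and without it the level was 3.16 CPM. *Prtn3* was spread over more cells, with a UMI in 19.3% of them. At 2000 UMIs per cell this share was 3.63% (95% Wilson interval 2.13% to 6.11%), against 1.90% (1.59% to 2.26%) in Tc. The 2 intervals overlap, which does not show equal shares. Thinning also discarded more UMIs per cell here (median depth 19922 UMIs) than in Tc (4588), so the shares cannot tell their message from background. Unthinned, *Prtn3* stood at 0.448 to 1.34 UMIs per cell by library, against 0.0290 to 0.0839 per Tc. Over all libraries without the top cell it was 0.457 against 0.0453. The part of free RNA was not tested. Among 1988 early erythroid-like cells, single cells held up to 180 *Prtn3* and 111 *Ctsg* UMIs, and over all of them 0.252% to 0.905% of thinned cells had a UMI of a given member. Intervals cover counting error only.

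Tc are not known to make these proteins, so their UMIs of the 4 genes were read as free RNA from other cells. Of 6761 Tc, 5983 (88.5%) had no UMI of any of the 4 and 701 had 1. The highest count was 5, in 1 cell, and no Tc came near the median of cluster 14 (208 UMIs). *Mpo* stood at 0.0367, 0.0262, 0.0676 and 0.0285 UMIs per Tc in the KO-labelled libraries 1 and 2 and the control-labelled libraries 1 and 2. *Prtn3* stood at 0.0337, 0.0290, 0.0839 and 0.0603, with control-labelled library 1 highest for both. A cell of cluster 14 held 1214- to 2457-fold more *Mpo* and 2052- to 5048-fold more *Prtn3* UMIs than a Tc of the same library.

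Relative to the library, this background was small. In the KO-labelled libraries 1 and 2 and control-labelled library 1, the level of the 4 genes in Tc was 0.749% to 2.59% of their level over all cells. In control-labelled library 2 it was 4.89% to 7.68%, beside the lowest share of Tc and of cluster 14 cells. Its Tc were also the shallowest, with a median of 2886 UMIs. The medians of KO-labelled libraries 1 and 2 and control-labelled library 1 were 4354.5, 5679 and 6343. The part of depth in these percentages was not tested. Hemoglobin genes reached further into Tc. *Hbb-bs* stood at 5.90% to 13.6% of its library level, whereas *S100a8*, an abundant neutrophil message, stood at 0.206% to 1.48%. Over 11 abundant genes of other cells, the median was 4.16%, 2.20%, 9.03% and 6.98% in the 4 libraries, against 1.45%, 1.09%, 1.86% and 6.63% for the 4 members.

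*Mpo* made up a larger share of the 4 genes in Tc than in the other cells in all 4 libraries, in 3 of them beyond counting error. Of 866 UMIs of the 4 genes in Tc, 27.6% were *Mpo* (95% Wilson interval 24.7% to 30.7%), against 20.7% of those in cells outside the Tc clusters. By library the *Mpo* share in Tc was 34.5%, 30.1%, 28.1% and 19.3%, and in the other cells 24.8%, 21.2%, 19.5% and 15.7%. The interval for Tc lay above the value of the other cells in KO-labelled libraries 1 and 2 and control-labelled library 1, whereas in control-labelled library 2 it ran from 15.1% to 24.5% and held that value. *Ctsg* made up 21.6% of the UMIs in Tc, between its 16.3% in cluster 14 and 68.6% in the basophil and mast-like cells.

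**Figure D3:**
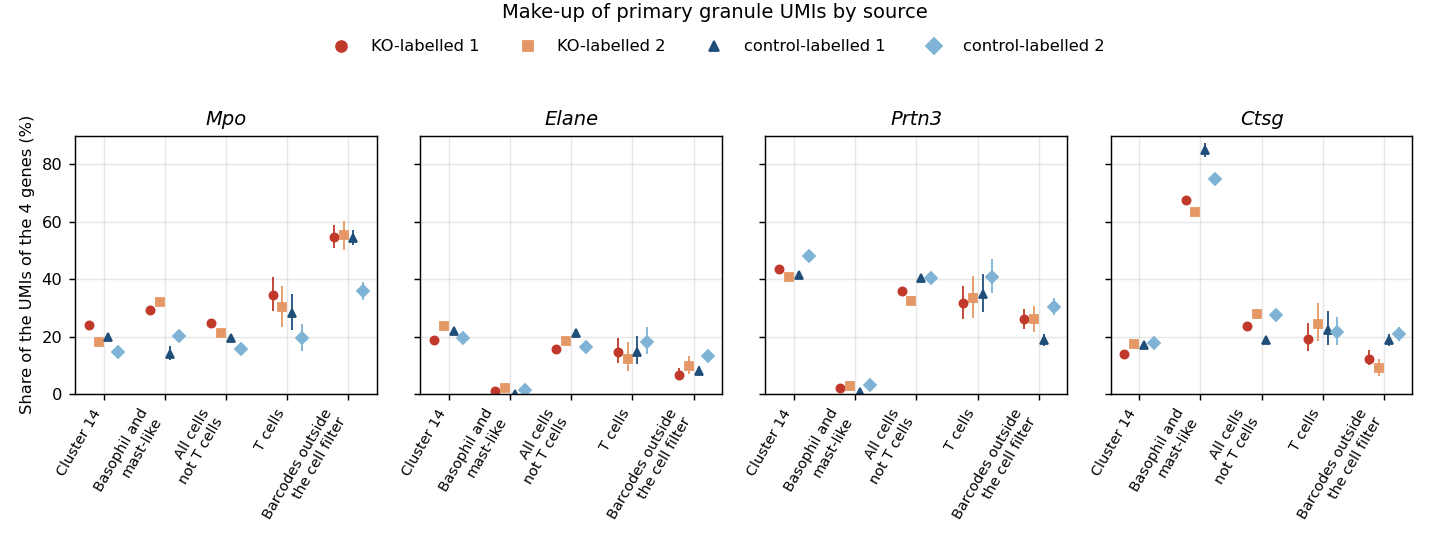
Share of each gene among the UMIs of the 4 genes, in percent, by source of the UMIs and library, with 95% Wilson intervals for counting error. Mpo makes up 35.8% to 55.4% in barcodes outside the cell filter and 19.3% to 34.5% in Tc, and Ctsg dominates in the basophil and mast-like cells. In the barcodes outside the filter with under 10 UMIs of the 4 genes, not drawn apart, Mpo makes up 27.9% to 44.4%.

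No difference between the genotype labels passed the test for any of the 4 genes in cluster 14. UMIs were summed per library and tested with edgeR's quasi-likelihood test and Benjamini-Hochberg adjustment over 9810 genes. The log2 fold change of KO over control was 0.18 ± 0.27 (SE) for *Mpo*, −0.10 ± 0.27 for *Elane*, −0.26 ± 0.31 for *Prtn3* and −0.31 ± 0.28 for *Ctsg*, each with an adjusted p of 0.998 and n = 2 libraries per label. The test called 17 genes in all (0.173%), and 0 of the 4 members; at an unadjusted p under 0.05 it called 351 genes, again with no member among them, and DESeq2 called 20 genes without a member. Leaving out control-labelled library 2 turned *Ctsg*, *Elane* and *Prtn3* to 0.0094, 0.086 and 0.16, and leaving out KO-labelled library 1 turned *Elane* to 0.03 and *Mpo* to −0.078. Of the granule partners 0 of 21 tested and of the regulators 0 of 11 passed (medians −0.07 and 0.11, against −0.02 over all genes). Of 5 tested genes of the secondary and tertiary granule list 1 passed. This was *Lcn2*, which encodes lipocalin-2 and stood at 41.9 and 22.2 CPM against 114 and 98.3 CPM. Among the 17 were 4 hemoglobin genes that were higher in the KO-labelled libraries, such as *Hbb-bs* at 951 and 1051 against 57.8 and 112 CPM, and the macrophage genes *C1qa* and *C1qb*; the part of free RNA in these was not tested.

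In the stem and progenitor-like cells *Mpo* did not pass the same test over 9542 genes (adjusted p = 0.776), with 1 gene called (0.0105%). Both KO-labelled libraries were above both controls. How many of all genes tested separate in this way was not counted, so that nothing is read from it. In KO-labelled library 2, 1 cell held 96 of the 102 *Mpo* UMIs. Without that cell the level there was 3.16 CPM, below the 5.72 CPM of control-labelled library 2. The log2 fold change of *Mpo* was 2.99 ± 0.68 with n = 2 libraries per label. Without KO-labelled library 1 it was 3.67 with an adjusted p of 3.29e-08, so that here 1 library decided the call, and DESeq2 gave 3.14 with an adjusted p of 0.0429. Without KO-labelled library 2 it was 2.04, with doublets kept 0.76 and without integration of the libraries 0.66, none of them past the threshold. Without the cell with most member UMIs in each library, *Mpo* fell below the filter on low counts, and *Prtn3* and *Ctsg* went from 0.40 and 1.41 to −0.65 and −0.0051. *Ctsg* passed when KO-labelled library 1 was left out (adjusted p = 0.00584). *Elane* was too low to be tested.

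In early erythroid-like cells, 5 of 10535 genes were called (0.0475%) and 0 members. *Ctsg* had a log2 fold change of 1.92 ± 0.40 (adjusted p = 0.192) and *Prtn3* one of 1.85 ± 0.94 (adjusted p = 0.527). Of *Ctsg*, 1 cell held 111 of 120 UMIs in KO-labelled library 1, and of *Prtn3*, 1 cell held 180 of 199 in KO-labelled library 2. *Prtn3* passed without KO-labelled library 1 (2.79, adjusted p = 0.00795) and was at −0.79 without KO-labelled library 2, where *Elane* was at −0.75. Without the filter on low counts *Ctsg* (1.88) and *Prtn3* (1.81) passed. With the expected rate of doublets removed, *Ctsg*, *Prtn3* and *Mpo* stood at −1.26, −0.72 and −0.45. No cluster was named monocyte and macrophage-like, so that no test was made there.

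In Tc the CPM of all 4 genes were lower in both KO-labelled libraries than in both controls, and none passed. How many of all 11638 genes tested separate in this way was not counted, so that nothing is read from it. The median Tc held 4354.5 and 5679 UMIs in the KO-labelled libraries 1 and 2. It held 6343 and 2886 in the control-labelled libraries 1 and 2, and the part of depth in the CPM was not tested. *Prtn3* had a log2 fold change of −1.50 ± 0.30 (adjusted p = 0.554), *Elane* of −1.55 ± 0.42 (adjusted p = 1.00), *Ctsg* of −1.29 ± 0.30 (adjusted p = 0.893) and *Mpo* of −0.75 ± 0.32 (adjusted p = 1.00), with 2 of 11638 genes called (0.0172%). All 4 had an unadjusted p under 0.05, as had 334 genes in all. Without the filter on low counts *Prtn3*, *Elane* and *Ctsg* passed, with adjusted p of 0.000197, 0.0245 and 0.0447. The 11 reference genes of other cells all had negative fold changes too, by 0.30 to 2.21 on the log2 scale, with no call. Only the 4 hemoglobin genes and *Lyz2* among them were lower in both KO-labelled libraries than in both controls. For *Igkc*, *Jchain*, *S100a8*, *S100a9*, *Car1* and *Car2* the libraries of the 2 labels overlapped. After thinning to 2000 UMIs, 1.28% ± 0.37 of Tc in the KO-labelled libraries and 2.67% ± 1.01 in the controls had a *Prtn3* UMI (SD, n = 2; two-sided exact permutation p = 0.333, the smallest that 2 against 2 libraries allow). *Elane* did not separate at that depth, with 0.531% and 0.340% of Tc in the KO-labelled libraries 1 and 2 and 0.130% and 1.89% in the control-labelled libraries 1 and 2 (exact permutation p = 1). *Mpo* and *Ctsg* were lower in both KO-labelled libraries (exact permutation p = 0.333 each). By UMIs per Tc without thinning, *Mpo* did not separate the labels, at 0.0367 and 0.0262 in the KO-labelled libraries 1 and 2. It was at 0.0676 and 0.0285 in the control-labelled libraries 1 and 2 (exact permutation p = 0.667). By that measure *Elane*, *Prtn3* and *Ctsg* were lower in both KO-labelled libraries (exact permutation p = 0.333 each).

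**Figure D4:**
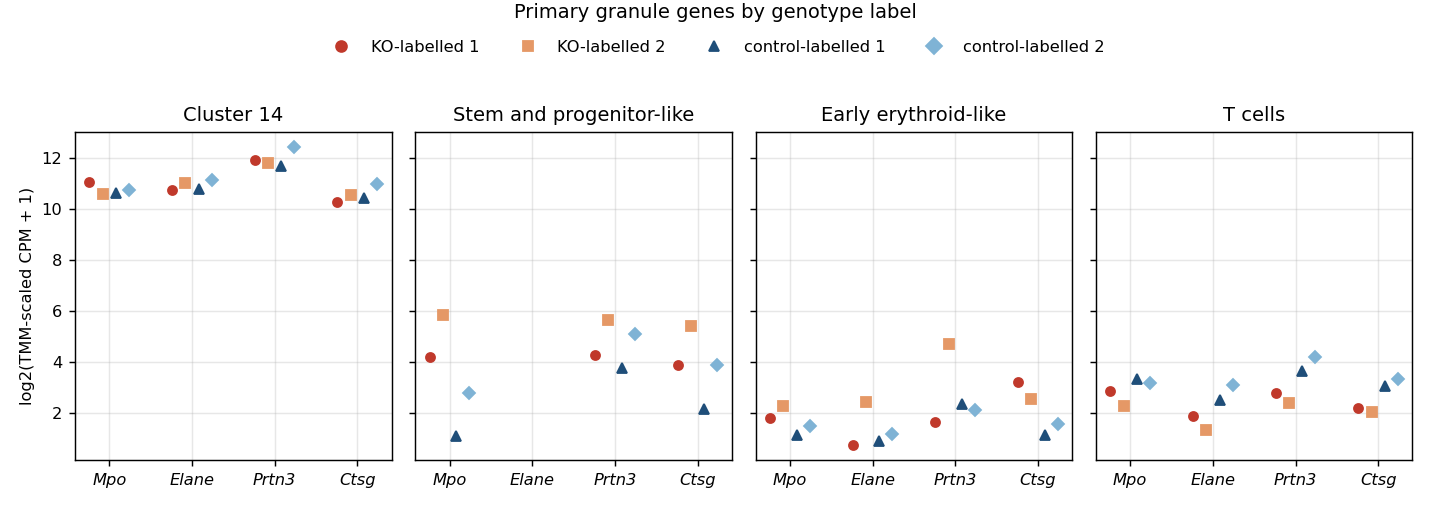
TMM-scaled CPM on a log2 scale after adding 1 for the 4 genes, by library, in the 4 classes that could be tested. Points of both labels mix in cluster 14, the KO-labelled libraries stand lower in Tc, and no gene passed the test in any class; Elane was too low to be tested in the stem and progenitor-like cells.

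The share of cluster 14 among cells that are not Tc did not separate the labels. It was 10.1% and 9.32% in the KO-labelled libraries 1 and 2 and 17.0% and 3.95% in the control-labelled libraries 1 and 2, so that the controls enclosed both others (exact permutation p = 1). Without control-labelled library 1 the log2 ratio of the means went from −0.11 to 1.30. The basophil and mast-like cells made up 6.91% and 5.33% against 1.73% and 2.71%, with no overlap (exact permutation p = 0.333). Shares of cells after an enrichment for Tc depend on what the enrichment removed, and its part was not tested.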

How the data were processed

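Spleen cells of 4 samples were sequenced with the 10x 3′ v3.1 chemistry. The authors deposited UMI counts per gene and barcode, with 1 antibody tag, which their processing notes credit to Cell Ranger 6.1.2 and mm10. A barcode counted as a cell from 500 genes and 1000 UMIs upward if no more than 10% of its UMIs were mitochondrial, and doublets called by Scrublet (scanpy 1.11.5; 2 to 109 per library) were removed. Cells were integrated and clustered (Seurat 5.3.0, 2000 variable genes, 30 dimensions, resolution 0.7, 21 clusters) without the 4 genes. A cluster was named when at least 3 listed markers stood at least 0.5 above other cells on the log2 scale and its top 10 genes did not go against the name. UMIs were summed per library for edgeR 4.0.16 (TMM, filterByExpr, quasi-likelihood test, adjusted p threshold 0.05). DESeq2 1.42.0, other filters, scalings, doublet settings and clusterings, left-out libraries and a replicate block were alternatives, and the fits were tested on simulated data. The genes named are the 4 members and those of lists for markers, granule partners, regulators, later granules and free RNA, plus the genes most like each member. The members and lists were chosen with earlier results of these data known. Column totals gave the depth. Positions come from GENCODE M21. Intervals cover counting error only. Of columns of other samples, 0 were present.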

Additional observations from a re-analysis of the deposited data

Results flagged for a closer look

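In all, 3 differences between cell classes were flagged because both KO-labelled libraries lay on one side of both controls in one class and on the other side in Tc. None of these differences was tested. The rule was applied to the 4 genes only, and the share of all genes that meet it was not counted, so that nothing is read from the number flagged. For *Mpo* the log2 fold change of KO over control was 2.99 in stem and progenitor-like cells and −0.75 in Tc, a difference of 3.74. For *Mpo* in early erythroid-like cells it was 0.94, a difference of 1.69 from Tc. For *Ctsg* in early erythroid-like cells it was 1.92 against −1.29 in Tc, a difference of 3.21. Single cells held much of these sums: 96 of 102 *Mpo* UMIs in the stem and progenitor-like cells of KO-labelled library 2, and 111 of 120 *Ctsg* UMIs in the early erythroid-like cells of KO-labelled library 1. Without its top cell, the level of *Ctsg* in the latter was 0.679 CPM against 9.05 CPM with it. Of *Mpo* in early erythroid-like cells, 1 cell held 19 of 36 UMIs in KO-labelled library 1 and 1 cell held 22 of 31 in KO-labelled library 2. Without the top cell of each library, *Mpo* stood at 1.28 and 1.11 CPM in the KO-labelled libraries 1 and 2. The control-labelled libraries 1 and 2 were then at 0.852 and 1.71 CPM, so that the labels overlapped.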

How the results depend on the processing

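Of 319 values recomputed under alternatives, 256 kept their direction and side of the threshold (or stayed within 1.5 times of a count), and the causes of the other changes were not tested. The number of genes called in cluster 14, stem and progenitor-like cells, early erythroid-like cells and Tc was 17, 1, 5 and 2. It was 99, 87, 339 and 108 without the filter on low counts. DESeq2 called 7, 63 and 19 in the last 3. With doublets kept it was 5 in cluster 14 and 9 in early erythroid-like cells, where it was 11 with the expected rate of doublets removed and 10 without integration. It was 2 in stem and progenitor-like cells without the cell with most member UMIs in each library, an alternative chosen after seeing the data. Leaving out 1 library gave 9 to 67, 10 to 45, 9 to 118 and 0 to 21 calls. An arm left with 1 sample was assumed to vary like the other.

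The replicate numbers pair no samples by the labels, and with 2 pairs the deviations of same-numbered libraries correlated at −0.17, 0.26, −0.19 and −0.14 in the 4 classes. With the replicate block 59, 18, 11 and 0 genes were called, and *Mpo* in stem and progenitor-like cells passed at 3.33 (adjusted p = 0.00296), the 1 call of a member under the block.

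Without the filter on low counts, members passed in Tc (*Ctsg* −1.27, *Elane* −1.52, *Prtn3* −1.47), early erythroid-like cells (*Ctsg* 1.88, *Prtn3* 1.81) and stem and progenitor-like cells (*Ctsg* 1.38, *Mpo* 2.97), and by DESeq2 *Mpo* in the last (3.14). In early erythroid-like cells the expected rate of doublets gave *Ctsg* −1.26, *Mpo* −0.45 and *Prtn3* −0.72. In stem and progenitor-like cells *Ctsg* and *Prtn3* were at −0.0051 and −0.65 without the top cells and at −0.19 and −1.05 without integration, and *Prtn3* at −0.23 with doublets kept.

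Over left-out libraries, cluster 14 ranged from −0.56 to 0.0094 for *Ctsg*, −0.25 to 0.086 for *Elane*, −0.078 to 0.39 for *Mpo* and −0.58 to 0.16 for *Prtn3*. Early erythroid-like cells ranged from −0.75 to 1.90 for *Elane* and −0.79 to 2.79 for *Prtn3*. Stem and progenitor-like cells ranged from −0.42 to 1.35 for *Prtn3*, 0.52 to 2.91 for *Ctsg* and 2.04 to 4.84 for *Mpo*. The share of Tc with an *Elane* UMI, KO minus control, ranged from −1.45 to 0.31 percentage points, and the log2 ratio of the share of cluster 14 from −0.81 to 1.30. No test was run in monocyte and macrophage-like cells, since no cluster was so named.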

Other observations

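Barcodes outside the cell filter held the 4 messages as well. Of 4152 such barcodes, 34 (0.819%, 95% Wilson interval 0.587% to 1.14%) held at least 10 UMIs of the 4 genes, and 33 of them had over 10% mitochondrial UMIs. By library there were 7 and 6 in the KO-labelled libraries 1 and 2 and 11 and 10 in the control-labelled libraries 1 and 2, while 0 of 6761 Tc held as many. *Mpo* made up 49.2% of the 3281 UMIs of the 4 genes in these barcodes, against 19.5% in cluster 14 and 27.4% in the basophil and mast-like cells. By library its share was 54.8%, 55.4%, 54.4% and 35.8%. In barcodes with under 10 such UMIs the share was 33.9% (30.6% to 37.3%) of 764 UMIs.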
